A study of Homo sapiens with 36 samples.

Results

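Regions of RNA whose N6-methyladenosine (m6A) signal differed between UM-SCC-1 cells with ALKBH5 shRNA-2 and UM-SCC-1 cells with scramble shRNA are described here. They are all 19251 regions of the authors' deposited effect table for this pair, out of 37709 regions in the 4 effect tables of the series, together with the 182 regions of their methylated-share table that carry values. Every region is described by its gene, position, block structure and direction, and no measured value was used to choose among them beyond the authors' own threshold. UM-SCC-1 is an established human cell line derived from squamous carcinoma of the head and neck. In both groups the cells were infected with retrovirus carrying the shRNA and kept for 4 days in blasticidin at 10 µg/mL, and each group has 3 m6A-seq and 3 RNA-seq samples in the labels. The ALKBH5 shRNA-2 cells carry an shRNA against ALKBH5 and the scramble cells a control hairpin; the sample titles name shRNA, although the series' design text speaks of siRNA. No label says that replicates came from separate cultures, so the RNA p-values reflect only how these samples vary, and part of that variation may be technical.

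m6A is the most common internal mark of messenger RNA. A complex built on METTL3 and METTL14 writes it, mostly at adenosines in a short sequence context with GGAC at its core, and ALKBH5 and FTO remove it. Reader proteins of the YTH and IGF2BP families bind the marked RNA and act on its splicing, export, translation and decay. In m6A-seq, fragmented RNA is enriched with an antibody and set against unenriched input. RBM33, the other protein targeted in the series, binds RNA and interacts with ALKBH5.

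The ALKBH5 transcript (chromosome 17, 18183078 to 18209954, hg38) was at 75.1 and 89.6 CPM in ALKBH5 shRNA-2 libraries, against 109, 132 and 123 CPM in scramble libraries. CPM, the authors' depth-scaled read counts, are used for RNA levels throughout. The difference of -0.55 on the log2(CPM + 1) scale (SE 0.10) was called lower, with a limma adjusted p of 0.000599. RBM33 RNA was at 220.1 and 220.4 CPM in ALKBH5 shRNA-2 libraries and at 232, 231 and 227 CPM in scramble libraries, a difference of -0.06 (SE 0.08, limma adjusted p = 0.676). RNA depth in these 5 libraries was between 4985416 and 6208488 reads in listed genes, and the depth behind the m6A values is unknown. In these bulk samples, less RNA per cell and fewer cells of a type cannot be told apart. Of the 10 squamous epithelial markers, KRT8, KRT18, CDH3, DSG3 and EPCAM were measured, with a summed level of 147 and 142 CPM in ALKBH5 shRNA-2 libraries and of 105, 124 and 114 CPM in scramble libraries. Most of that sum was KRT8 and KRT18. TP63, KRT5, KRT14, KRT17 and KRT6A are not among the 21797 genes the authors list. Only 18227 of the listed genes reached a mean of 1 CPM, so genes of low level are listed too. The rule for listing is not known here, and the levels of the 5 missing markers are unknown. The squamous origin is that of the cell line and was not tested with these markers. Fibroblast markers summed to between 38.5 and 39.7 CPM in ALKBH5 shRNA-2 libraries and between 34.1 and 40.3 CPM in scramble libraries, mostly COL1A1 and COL3A1. Neural and melanocyte markers summed to 32.67 and 29.67 CPM in ALKBH5 shRNA-2 libraries, against 20.05, 29.35 and 23.94 CPM in scramble libraries, with 1 of 3 tested genes called higher, PMEL, at 8.41 and 6.55 CPM in ALKBH5 shRNA-2 libraries and at 0.685, 2.61 and 3.77 CPM in scramble libraries. Endothelial markers summed to at most 3.08 CPM in ALKBH5 shRNA-2 libraries and 4.34 CPM in scramble libraries, and leukocyte markers to at most 1.54 and 1.37 CPM in ALKBH5 shRNA-2 and scramble libraries. The part of these cell types in the results was not tested.

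Sequence could be read for the listed regions that lie on the first 50 bases from a RefSeq start, since only windows around such starts were given. There were 198 such regions in 196 genes, of which 49 were higher and 149 were lower in ALKBH5 shRNA-2 cells. A gene can have more than 1 RefSeq start, as MEF2C and FZR1 do here. The stretches below are the 3 highest and 3 lowest effects among those regions that share at least 20 bases with the start window and hold GGAC there. They come from RefSeq (GRCh38.p14), read 5′ to 3′ on the gene's strand, and capitals mark GGAC.
AMH: ccacgatgcgGGACctgcctctca
SLC3A2: gtaatgtgcaGGACtccttacatc
PANK2: ccgcgcgcGGACactgtccccgca
PRRG1: tagcggagcgGGACccgctgtgag
FITM2: acggagaggaGGACggtggctgac
IMPACT: cgccccgcccccgcgctccGGACc
AMH, which encodes anti-Müllerian hormone, had the largest of these effects, at 2.97 on the natural log scale of the authors' deposited table, a ratio of 19.5, with the stretch at chr19:2249328-2249351 on the plus strand. The stretch of SLC3A2, the heavy chain of amino acid transporters, lies at chr11:62881719-62881742 on the plus strand, in a region with an effect of 2.00. That of PANK2, a kinase of coenzyme A synthesis, lies at chr20:3889816-3889839 on the plus strand, in a region with an effect of 1.32. The lower regions were at -1.68 in PRRG1 (chrX:37349377-37349400, plus strand), -1.59 in FITM2 (chr20:44311159-44311182, minus strand) and -1.16 in IMPACT (chr18:24426696-24426719, plus strand). FITM2 acts in lipid droplet formation and IMPACT in the control of the kinase GCN2. The letters GGAC, searched on the gene's strand only, stood in 5 of 30 higher regions and in 9 of 82 lower regions that share at least 20 bases with a start window, or 16.7% and 11.0%. They stood in 6589 of all 34943 start windows of 50 bases, or 18.9%, and the shared stretches are often shorter than those windows, with medians of 45.5 bases in higher and 34 bases in lower regions.

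Most listed regions gained m6A signal. The authors' deposited table holds 13953 regions with a positive effect and 5298 with a negative one, so 72.5% were higher in ALKBH5 shRNA-2 cells (exact 95% interval 71.8 to 73.1%, counting error only). Each effect is a log ratio of ALKBH5 shRNA-2 over scramble, read here as a natural log from its values, no effect under 0.5 in size is listed, and the highest listed p-value is 0.00826. Regions outside these limits are not in the table, so the share of all m6A regions that changed is not known. Higher regions had a median effect of 1.08, a ratio of 2.95, and a range between the 10th and 90th percentiles of 0.66 to 1.84. Lower regions had a median effect of -0.81, a ratio of 0.444, and a range between the same percentiles of -1.32 to -0.56. An effect of at least 1 in size was reached by 8061 higher regions (57.8% of them) and by 1519 lower regions (28.7% of them). Effects and p-values are the authors' own, and without m6A values for single libraries they carry no replicate spread computed here.

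**Figure D1:**
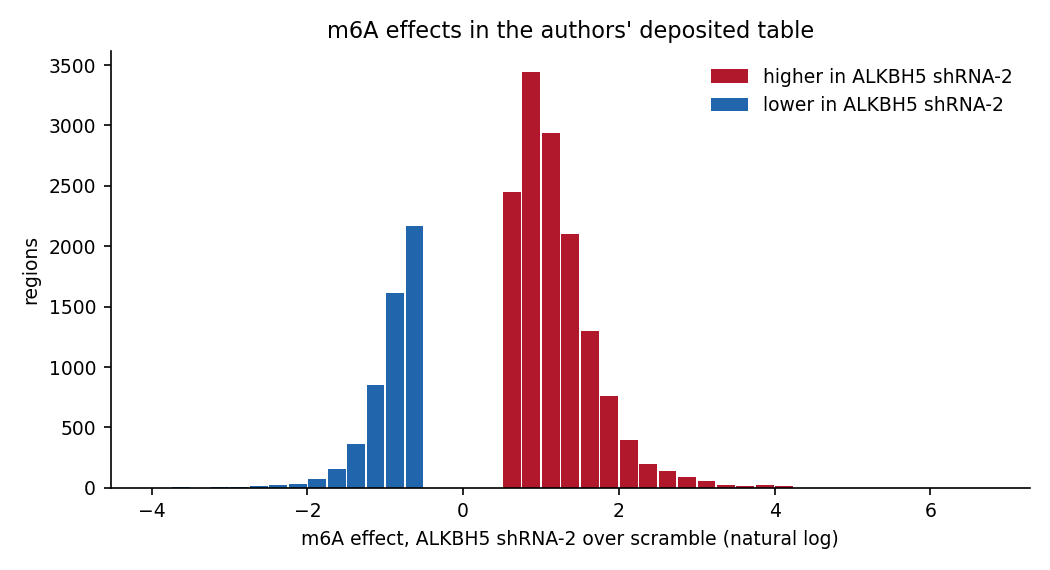
Number of listed regions (vertical axis) by m6A effect of ALKBH5 shRNA-2 over scramble (horizontal axis, natural log, bins of 0.25), red for regions higher and blue for regions lower in ALKBH5 shRNA-2 cells. The gap around 0 is the authors' limit of 0.5, and the higher side holds 13953 of 19251 regions and reaches farther from 0.

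The regions carry 7388 gene names. Of these names, 3769 had higher regions only, 1746 had lower regions only and 1873 had both, while 3074 had a single region and 148 had 10 or more. Regions of 1 gene share a transcript and are not independent. Protein-coding genes held 18607 regions, with 72.9% higher (exact 95% interval 72.3 to 73.6%). Long noncoding RNA genes held 263 regions in 144 genes, with 51.7% higher (exact 95% interval 45.5 to 57.9%). The deposited regions are built from windows of 50 bases, and a region that continues across an intron is listed in blocks. Blocks of more than 1 were found in 3941 higher regions (28.2%, exact 95% interval 27.5 to 29.0%) and in 324 lower regions (6.12%, exact 95% interval 5.49 to 6.79%). Long regions leaned the same way: of 267 regions with 200 bases or more, 244 were higher and 23 were lower.

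Direction differed along genes. Among regions that began within 250 bases of the annotated gene start, 228 of 642 (35.5%) were higher in ALKBH5 shRNA-2 cells. Between 250 and 500 bases from the start the count was 373 of 486 (76.7%), and between 5000 and 10000 bases it was 1763 of 2200 (80.1%). Towards the other end the change was smaller, with 307 of 482 regions (63.7%) higher within 250 bases of the gene end and 2175 of 2709 (80.3%) between 10000 and 20000 bases from it. Counted from the side of direction, 13.8% of lower regions (exact 95% interval 12.9 to 14.8%) and 7.38% of higher regions (6.95 to 7.83%) lay within 1000 bases of the gene start. Within 1000 bases of the gene end were 1535 higher regions (11.1% of them) and 783 lower regions. Distances run along the genome and include introns, and exons were not used here.

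**Figure D2:**
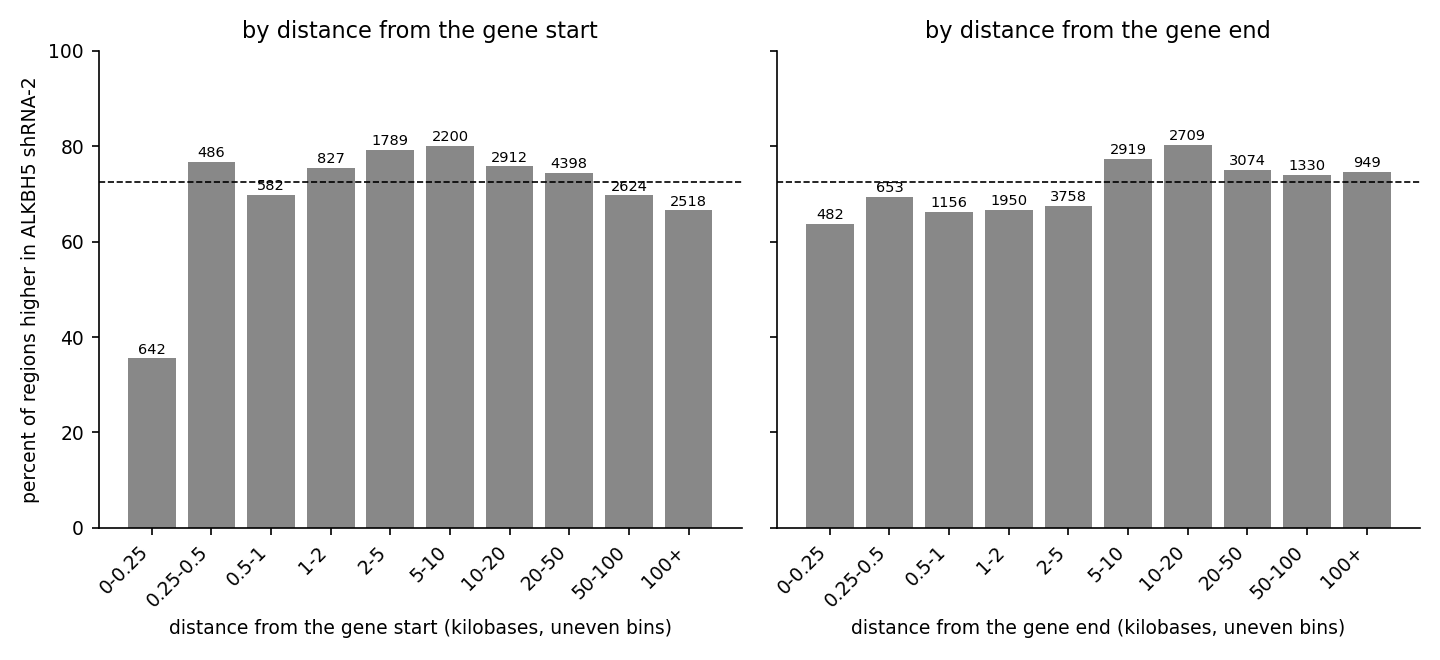
Percent of regions that were higher in ALKBH5 shRNA-2 cells (vertical axis) by distance in kilobases from the annotated gene start (left) and gene end (right), in uneven bins, for regions inside the gene. Numbers above bars count regions and the dashed line marks the 72.5% of all regions; the bin nearest the gene start stands at 35.5%.

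The direction also moved with RNA level. In genes with less than 2 CPM per kilobase of gene length, 575 of 1165 regions (49.4%) were higher, and in genes with at least 50 CPM per kilobase 1204 of 1455 (82.7%) were higher. The level is a mean over the RNA-seq libraries. Near gene starts the values ran otherwise: within 250 bases of the start, 38.2% of 34 regions were higher at the lowest level and 24.2% of 66 at the highest. Farther inside genes the values were 49.8% of 1123 regions at the lowest level and 85.6% of 1386 at the highest. The part of RNA level in the direction of regions was not tested.

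The 198 regions on the first 50 bases from a RefSeq start, a set other than that within 250 bases of the annotated start, were also ranked. Their lowest deposited effect was in EBP, a sterol isomerase of cholesterol synthesis, at -3.06. GOPC, a Golgi scaffold protein, followed at -2.37, and EPC1, a subunit of the NuA4 acetyltransferase complex, at -2.36. SLIRP, a mitochondrial RNA-binding protein, was at -2.16. The highest of the 198 was in PGK1.

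PGK1, which encodes the glycolytic enzyme phosphoglycerate kinase, held the highest effect of the whole table. Its region of 150 bases at chromosome X, 78104219 to 78104368, covers the RefSeq start of the gene (the authors' gene span begins 193480 bases upstream), and its deposited effect was 6.37, a ratio of 581, with a deposited p of 1.7e-11. The deposited effect of the overlapping region was 5.99 in the table of ALKBH5 shRNA-1, which uses the same scramble samples. In the tables of RBM33 shRNA-1 and RBM33 shRNA-2, set against a scramble group of their own, it was 8.60 and 8.73. PGK1 has a second listed region 3091 bases from the gene end, where the effect was -1.09. PGK1 RNA was at 475 and 446 CPM in ALKBH5 shRNA-2 libraries and at 248, 248 and 240 CPM in scramble libraries. It rose by 0.90 (SE 0.07, limma adjusted p = 2.56e-08). PGK1 has processed copies elsewhere in the genome, and reads shared with them could be counted in either place. The labels do not say whether the shRNA vector carries PGK1 promoter sequence, so reads of such a sequence cannot be told apart from PGK1 transcripts in any of these PGK1 values.

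Below PGK1, the highest effects, over genes whose mean reached 1 CPM, included 4.35 in TNRC6A, a scaffold of microRNA silencing, 4.20 in the zinc finger gene ZNF805, 4.19 in the adaptor gene SH3BP2 and 4.17 in MED18, a Mediator subunit. MAT2A followed at 4.14, GATA2, a transcription factor of blood development, at 4.13, NSD3, a histone methyltransferase, at 4.11, and ZNF629 at 4.06. For the regions of ZNF805, SH3BP2, MED18, MAT2A, GATA2, NSD3 and ZNF629 the ratios were the whole numbers 67, 66, 65, 63, 62, 61 and 58, and that of TNRC6A was 77.5. Ratios, or their inverses, that fell within 0.0001 of a whole number once doubled made up 32.2% of the 1035 deposited effects of size 2 or more and 4.21% of the smaller ones. The ALKBH5 shRNA-2 and scramble values behind them are not part of the table, so how few reads they rest on is unknown.

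The lowest effect was -3.74 in CDX2, an intestinal transcription factor, 497 bases from the gene start. G0S2, an inhibitor of the lipase ATGL, followed at -3.71, then FZD9, a WNT receptor, at -3.51, TRIM65, a ubiquitin ligase, at -3.16, and PLCL2 at -3.12. EBP stood at -3.06, MBD2, a reader of DNA methylation, at -3.04, the growth factor gene IGF2 at -3.00, FAM83G at -2.96 and ASXL1, a Polycomb-associated chromatin protein, at -2.91. Of these 10 regions, that of FAM83G also overlapped a region of the ALKBH5 shRNA-1 table, with an effect of -0.88 there. Elsewhere in the gene, higher regions were listed for FAM83G, EBP, ASXL1, CDX2 and TRIM65. Their highest effects were 3.11, 2.23, 1.89, 1.83 and 1.00 in that order. All regions listed for G0S2, FZD9, PLCL2, MBD2 and IGF2 were lower. For the lowest regions of CDX2, G0S2, FZD9, TRIM65, MBD2 and IGF2, the inverse ratios were whole numbers once doubled, within 0.0001. How few reads these falls rest on is unknown.

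Among the genes with the most regions, those named here were mostly higher throughout. KMT2D, a histone H3K4 methyltransferase, had the most regions, 32, of which 31 were higher and 1 was lower, with a highest effect of 2.66 and a median of 1.46. PCNT, a pericentriolar scaffold, had 26 higher and 1 lower, PRRC2B had 26 higher, and the scaffold of the cap-binding complex EIF4G1 had 22 higher and 1 lower. The centrosomal gene CEP250 had 22 higher, and HDLBP, an RNA-binding KH-domain protein also called vigilin, had 21 higher. AHNAK, a giant scaffold protein, was the most mixed of the genes named here, with 19 higher and 5 lower. Regions covered between 6.94% of the gene length given by the authors for AHNAK and 27.4% of that for EIF4G1. KMT2D RNA was at 253 and 295 CPM in ALKBH5 shRNA-2 libraries and at 195, 201 and 199 CPM in scramble libraries, and it rose by 0.46 (SE 0.09, limma adjusted p = 0.00114).

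The lowest deposited p-values belonged to long regions of abundant transcripts. Among them, the elongation factor gene EEF2 had an effect of 0.97 over 650 bases in 4 blocks, the spectrin gene SPTBN1 1.93 over 500 bases and YBX1, an RNA-binding cold shock protein, 0.88 over 500 bases. YBX1 also had a lower region, at -0.99, 127 bases from the gene start. EEF2 had lower regions towards the gene end, at -0.56 and -0.51, beside higher ones elsewhere. All regions of SPTBN1 were higher. ATF4, the transcription factor of the integrated stress response, had an effect of 1.50 over 350 bases in its main region and 0.83 and 1.11 in flanking ones. Its last region, which reaches the gene end, went the other way, at -1.51.

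The methylated-share table gives an estimated share of methylated RNA per region in each group. Of its 187 lines 5 were empty and 182 held values, for 146 gene names, and all had a deposited adjusted p of at most 0.0994. Shares were higher in ALKBH5 shRNA-2 cells in 166 regions and lower in 16, so 91.2% were higher (exact 95% interval 86.1 to 94.9%). In the higher regions the median share was 59.4% in ALKBH5 shRNA-2 cells and 31.0% in scramble cells, with a median difference of 20.1 percentage points. In the lower regions it was 38.8% in ALKBH5 shRNA-2 cells and 67.4% in scramble cells, with a median difference of -27.6 points. Of the 41 regions with a deposited adjusted p under 0.01, all 41 were higher. A deposited adjusted p under 0.05 was reached by 114 of the 166 higher regions and by 7 of the 16 lower ones. By scramble share, the median difference of higher regions was 21.4 points in 64 regions under 25%, 24.0 points in 49 between 25% and 50%, 15.04 points in 44 between 50% and 75%, and 10.9 points in 9 of at least 75%. A share cannot exceed 100%, which limits the difference where the scramble share is high.

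**Figure D3:**
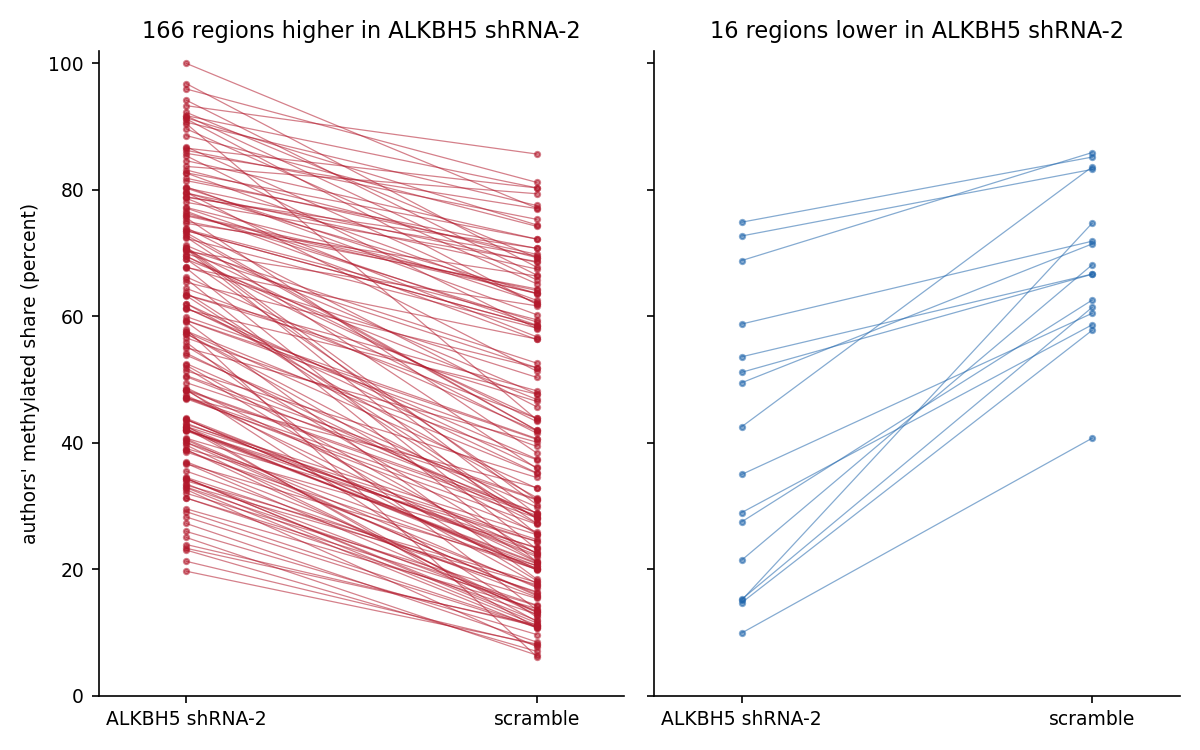
Methylated share in percent, as deposited by the authors (vertical axis), in ALKBH5 shRNA-2 cells (left of each panel) and scramble cells (right), 1 line per region. The 166 regions with a higher share stand in the left panel and the 16 with a lower share in the right panel, and scramble shares of the lower group start at 40.7%.

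PGK1 again came first, with a share of 57.9% in ALKBH5 shRNA-2 cells and 6.19% in scramble cells and a deposited adjusted p of 2.1e-20. Its share-table region lies inside the region at the RefSeq start described above, and the same doubt about vector sequence holds for it. A region of SIN3A, a corepressor scaffold, had 90.5% in ALKBH5 shRNA-2 cells and 43.7% in scramble cells. AEN, an exonuclease of the p53 response, had 70.6% in ALKBH5 shRNA-2 cells and 25.6% in scramble cells. TAF15, an RNA-binding protein of the FET family, had 65.9% in ALKBH5 shRNA-2 cells and 21.2% in scramble cells. MCM5 encodes a subunit of the replicative helicase, and its share was 67.6% in ALKBH5 shRNA-2 cells and 23.2% in scramble cells. XRCC6, which encodes the DNA end-binding protein Ku70, had 55.9% in ALKBH5 shRNA-2 cells and 13.6% in scramble cells. The deubiquitinase gene USP10 had 71.0% in ALKBH5 shRNA-2 cells and 30.2% in scramble cells, and the splicing factor gene SRSF4 had 59.1% in ALKBH5 shRNA-2 cells and 18.4% in scramble cells. P4HB, a protein disulfide isomerase, had 69.0% in ALKBH5 shRNA-2 cells and 31.0% in scramble cells. All of these regions had scramble shares under 50%. Those of AEN, MCM5 and XRCC6 had a deposited adjusted p over 0.05 (0.0524, 0.0653 and 0.0586). Several genes had more than 1 region in the table: YBX1 had 5, all higher, and PARP1, the poly(ADP-ribose) polymerase, 4, all higher.

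The largest fall was in RNPEP, an aminopeptidase, with a share of 15.1% in ALKBH5 shRNA-2 cells and 74.7% in scramble cells. PLOD2, a collagen lysyl hydroxylase, had 21.4% in ALKBH5 shRNA-2 cells and 68.1% in scramble cells, and the deubiquitinase gene USP9X had 15.2% in ALKBH5 shRNA-2 cells and 61.4% in scramble cells. Among the other 7 of the 10 largest falls, the mitochondrial ribosomal gene MRPL18 had 14.7% in ALKBH5 shRNA-2 cells and 57.8% in scramble cells, and the chaperone gene HSPA8 had 42.5% in ALKBH5 shRNA-2 cells and 83.6% in scramble cells. ATAD2, a bromodomain ATPase, had 27.5% in ALKBH5 shRNA-2 cells and 62.6% in scramble cells. IARS1, a tRNA synthetase, had 9.92% in ALKBH5 shRNA-2 cells and 40.7% in scramble cells, and TAGLN2, an actin-binding protein, had 29.0% in ALKBH5 shRNA-2 cells and 58.7% in scramble cells. UHRF1, which maintains DNA methylation, had 35.0% in ALKBH5 shRNA-2 cells and 60.5% in scramble cells, and DBNL, an actin adaptor, had 49.5% in ALKBH5 shRNA-2 cells and 71.4% in scramble cells. CACUL1, a regulator of cell cycle progression, held regions of both directions near its start. Its region 753 bases from the start had a share of 70.8% in ALKBH5 shRNA-2 cells and 28.7% in scramble cells, while the one 403 bases from the start had 72.7% in ALKBH5 shRNA-2 cells and 83.2% in scramble cells.

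Of the 182 share-table regions, 128 (70.3%) shared at least 1 base on the same strand with a region of the effect table, which is 0.753% of the 19251 regions there (145 regions). In 124 of the 128 every overlapping effect had the sign of the share difference. Both tables come from the same samples, so this is a description of 2 summaries of 1 data set. Some genes had different directions at different places. HSPA8, a constitutive HSP70 chaperone, had 4 regions in the effect table, all higher, between 0.93 and 2.26, beside its lower share of 42.5% against 83.6% in another region. That lower share had a deposited adjusted p of 0.0903. JUN, an AP-1 subunit, had 3 regions in the effect table, all lower, the largest at -0.75, 35 bases from the gene start, while 2 regions over 1000 bases inside the gene had shares of 90.7% and 85.8% in ALKBH5 shRNA-2 cells, against 77.5% and 77.0% in scramble cells. In the table of ALKBH5 shRNA-1, which shares the scramble samples, the same JUN regions went the other way, with 61.1% and 62.8% in ALKBH5 shRNA-1 cells, against 77.5% and 77.1% in scramble cells. For the HSPA8 region that table gives 40.7% in ALKBH5 shRNA-1 cells and 83.6% in scramble cells.

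Most genes of the m6A machinery had a listed region. Of 28 writer, eraser and reader genes tested for RNA, 27 had at least 1 region, 16 with higher regions only, 2 with lower regions only and 9 with both, and 80 of their 100 regions were higher. Over all 18227 genes tested for RNA, 39.8% had a listed region, 20.3% had higher regions only, 9.28% had lower regions only and 10.2% had both. ALKBH5 had 4 regions, all higher, between 1.00 and 1.74. RBM33 had 10 higher and 1 lower, between -0.79 and 1.77. METTL3, the catalytic subunit of the writer, had 5 higher regions, the largest at 2.01, while METTL14, its partner, had 1 higher and 3 lower. RBM15, a writer subunit that binds RNA, had 9 higher regions. Among readers, YTHDF1 had 5 higher regions, YTHDF2 had 2 higher and 3 lower, IGF2BP1 had 5 higher and IGF2BP3 had 3 lower. YTHDC1, the nuclear reader, had 1 higher region, and its RNA was at 267 and 275 CPM in ALKBH5 shRNA-2 libraries, against 208, 206 and 203 CPM in scramble libraries (0.40, SE 0.08, limma adjusted p = 0.0026).

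MAT2A, which makes the methyl donor S-adenosylmethionine, had 6 regions, all higher, between 1.07 and 4.14, spread over 1557 to 4006 bases from the gene end. Its RNA was at 111 and 115 CPM in ALKBH5 shRNA-2 libraries, against 64.1, 50.7 and 53.9 CPM in scramble libraries. MAT2A RNA rose by 1.00 (SE 0.11, limma adjusted p = 2.17e-06).

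All 36 tested chromatin enzyme genes had a listed region, and 240 of their 276 regions (87.0%) were higher. Over all tested genes 39.8% had a listed region, and 72.5% of all regions were higher. The lowest mean among the chromatin enzyme genes was 48.9 CPM. Of 10811 genes whose mean reached 10 CPM, 6541 had a listed region. KMT2B had 10 higher regions, the methyltransferase gene SETD1A 8 higher, the acetyltransferase gene CREBBP 11 higher and 1 lower, and KMT2C 9 higher and 3 lower. Of the 36 chromatin enzyme genes, RNA was called higher in 2 and lower in 2, close to the shares over all 18227 tested genes, 5.06% higher and 5% lower. Splicing factor genes (SR and hnRNP proteins with their kinases) had listed regions in 32 of 36, with 20 genes higher only, 0 lower only and 12 both, and 119 of 142 regions higher. Their RNA was called higher in 7 and lower in 1. HNRNPM, a splicing regulator, had 10 higher regions, and its RNA was at 617 and 563 CPM in ALKBH5 shRNA-2 libraries, against 398, 424 and 447 CPM in scramble libraries (0.48, SE 0.08, limma adjusted p = 0.000336).

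Of 25 genes of mRNA export, 16 had listed regions, 11 higher only, 0 lower only and 5 both, with 41 of 46 regions higher. RNA was called higher in 6 of the 25 and lower in 0. Over all tested genes 39.8% had a listed region, and RNA was called higher in 5.06% and lower in 5%. Over all regions 72.5% were higher. The lowest mean among the 25 export genes was 14.4 CPM. Of 10811 genes whose mean reached 10 CPM, 6541 had a listed region, and RNA was called higher in 7.31% and lower in 7.91%. The helicase gene DDX39A had 3 higher regions with the largest at 2.56, and its RNA was at 88.5 and 96.7 CPM in ALKBH5 shRNA-2 libraries, against 47.6, 52.4 and 36.8 CPM in scramble libraries (1.02, SE 0.12, limma adjusted p = 3.98e-06). ALYREF, the adaptor that hands RNA to the export receptor, had 2 higher regions and an RNA difference of 0.75 (SE 0.10, limma adjusted p = 4.65e-05). SRRT, which links the cap-binding complex to RNA processing, had 4 higher regions and an RNA difference of 0.76 (SE 0.09, limma adjusted p = 1.19e-05). SRRT also had a higher methylated share, of 75.6% in ALKBH5 shRNA-2 cells and 38.4% in scramble cells.

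Heat shock genes had listed regions in 19 of 24 tested genes, with 42 of 53 regions (79.2%) higher. Over all tested genes 39.8% had a listed region, and 72.5% of all regions were higher. RNA of the heat shock genes was called higher in 15 and lower in 0, with a median difference of 0.45. Over all tested genes 5.06% were called higher and 5% lower. The lowest mean among the 24 heat shock genes was 6.03 CPM. Of 10811 genes whose mean reached 10 CPM, 6541 had a listed region. HSPA1B, an inducible HSP70, had a single region, lower at -0.84, while its RNA was at 472 and 476 CPM in ALKBH5 shRNA-2 libraries, against 29.0, 31.8 and 37.7 CPM in scramble libraries (3.82, SE 0.11, limma adjusted p = 4.88e-18). HSPA1B is a near copy of HSPA1A, so reads of the pair are uncertain. HSPA8 RNA was at 506 and 404 CPM in ALKBH5 shRNA-2 libraries, against 210, 169 and 166 CPM in scramble libraries (1.32, SE 0.10, limma adjusted p = 4.5e-09). HSP90AA1 had 4 higher regions and 1 lower one, with an RNA difference of 0.63 (SE 0.11, limma adjusted p = 0.000587).

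Of 33 genes of the ATF4 and unfolded protein response, 25 had listed regions, 7 higher only, 7 lower only and 11 both. In these genes 82 of 106 regions (77.4%) were higher, beside 72.5% over all regions. RNA was called higher in 4 of the 33 and lower in 9. The lowest mean among the 33 was 5.30 CPM. Of 10811 genes whose mean reached 10 CPM, 6541 had a listed region. Over all tested genes 39.8% had a listed region, and RNA was called higher in 5.06% and lower in 5%. ASNS, asparagine synthetase, had 2 regions, both lower, at -1.18 and -1.21. Its RNA was at 119 and 104 CPM in ALKBH5 shRNA-2 libraries, against 189, 169 and 173 CPM in scramble libraries (-0.66, SE 0.09, limma adjusted p = 2.94e-05). In the immediate early and AP-1 list, 33 of 54 regions (61.1%) were higher, and EGR1 had a single region with an effect of 3.66. Of the 17 tested genes named as ALKBH5 targets in earlier work, 13 had listed regions, 1 higher only, 2 lower only and 10 both, with 28 of 44 regions (63.6%) higher.

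DDIT4, an inhibitor of mTORC1 signalling that is among those targets, had 6 regions, all higher. They ran from 291 bases after the gene start to 199 bases before the gene end, with effects between 0.54 and 1.58, and the lowest p belonged to a region of 300 bases at chromosome 10, 72275388 to 72275687, with an effect of 1.20 and a deposited p of 2.5e-16. Inside it, the methylated share was 78.7% in ALKBH5 shRNA-2 cells and 56.8% in scramble cells. DDIT4 RNA was at 174 and 167 CPM in ALKBH5 shRNA-2 libraries, against 294, 294 and 313 CPM in scramble libraries, a difference of -0.81 (SE 0.08, limma adjusted p = 7.57e-07).

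SF3A2 and AMH, which lie next to each other on chromosome 19 and on the same strand, were singled out after their values were seen. SF3A2, a subunit of the U2 snRNP of the spliceosome, had 7 regions, all higher, and the last of them, 76 bases before the gene end, had an effect of 2.96 and a deposited p of 1.5e-16. AMH starts downstream of it, and its 5 regions were also all higher, between 1.26 and 2.97, of which the first lies 145 bases before the annotated AMH start. SF3A2 RNA was at 92.3 and 123 CPM in ALKBH5 shRNA-2 libraries and at 98.9, 110 and 122 CPM in scramble libraries, a difference of -0.04 (SE 0.12, limma adjusted p = 0.869). Those groups overlap, and the sign turned without ALKBH5 shRNA-2 replicate 1 (0.16) or scramble replicate 3 (0.03). AMH RNA was at 51.8 and 57.4 CPM in ALKBH5 shRNA-2 libraries, against 5.14, 4.30 and 6.03 CPM in scramble libraries. It rose by 3.18 (SE 0.19, limma adjusted p = 2.81e-11).

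**Figure D4:**
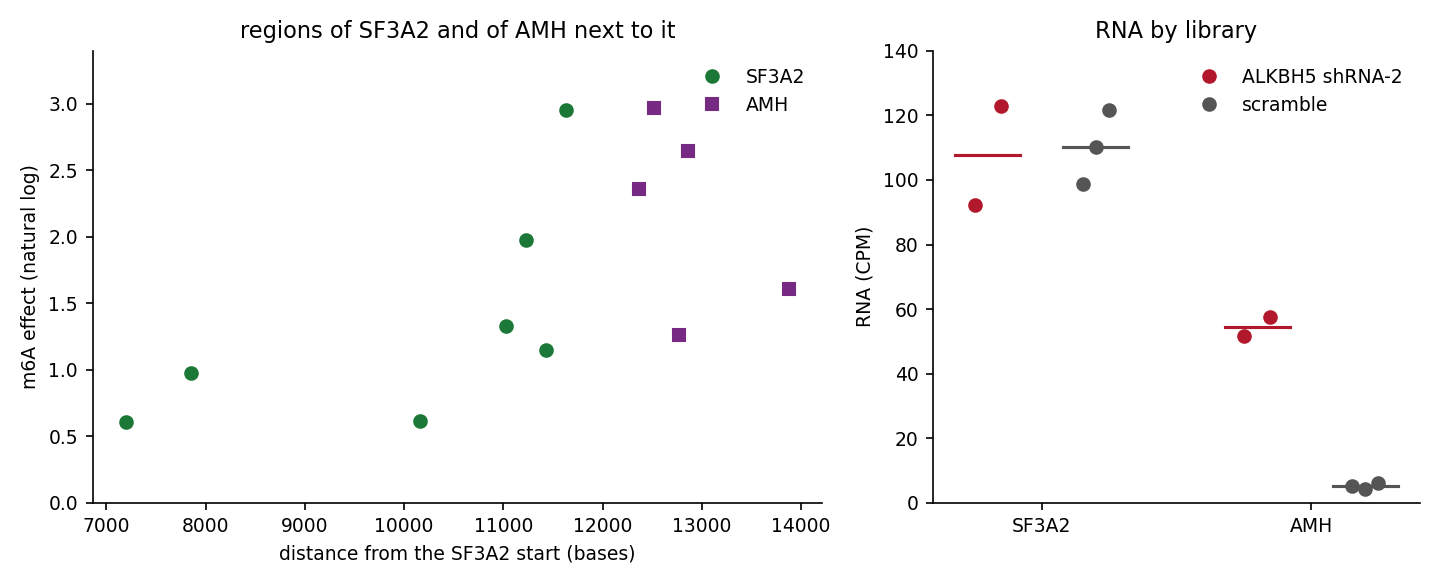
Left, deposited m6A effect (natural log) of each listed SF3A2 (green) and AMH (purple) region by distance in bases from the SF3A2 start. Right, RNA in CPM by library (points) with the group mean (line) for ALKBH5 shRNA-2 (red) and scramble (grey); SF3A2 values overlap between groups while AMH stands at 51.8 and 57.4 CPM in ALKBH5 shRNA-2 libraries and at most at 6.03 CPM in scramble libraries.

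RNA of the host genes was tested with limma over 18227 genes, of which 1834 (10.1%) were called, 922 higher (5.06%) and 912 lower (5%). Of the 3708 tested genes with higher regions only, 256 were called higher (6.90%) and 330 lower (8.90%), with a median difference of -0.04. Of the 1691 with lower regions only, 131 were called higher (7.75%) and 98 lower (5.80%), with a median of 0.02, and the median over all tested genes was 0.01. Genes with regions of both directions had 159 higher and 144 lower of 1859, and genes with no listed region had 376 higher and 340 lower of 10969. Genes with listed regions had more RNA per length, with a median of 7.05 CPM per kilobase against 2.20 for genes with none. Over genes whose mean reached 10 CPM, the calls were 254 higher (7.54%) and 320 lower (9.50%) of 3369 with higher regions only, and 122 higher (8.99%) and 98 lower (7.22%) of 1357 with lower regions only. All 10811 genes of that level had 790 higher (7.31%) and 855 lower (7.91%). The count of 1834 was 592 without ALKBH5 shRNA-2 replicate 1, 1181 without replicate 3 and 1163 without scramble replicate 1. In the same order the count for genes with higher regions only was 204, 385 and 394, and for genes with lower regions only 81, 135 and 139. The authors name their RNA table as that of the input, so both measures may share libraries and are not independent.

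Beyond AMH, the largest RNA rises among host genes were in ANKRD1, a muscle ankyrin repeat gene induced by YAP, which has 1 lower region, and in HSPA1B and HSPA6, both heat shock genes with 1 lower region each. ANKRD1 was at 52.3 and 44.3 CPM in ALKBH5 shRNA-2 libraries, against 0.514, 1.54 and 0.754 CPM in scramble libraries (4.70, SE 0.25, limma adjusted p = 4.24e-12). HSPA6 was at 15.3 and 14.6 CPM in ALKBH5 shRNA-2 libraries, against 0, 0.461 and 1.13 CPM in scramble libraries. A count of 0 there allows up to 0.514 CPM, counting error only. DNAH17, an axonemal dynein, has 2 higher regions and rose by 2.47 (SE 0.15, limma adjusted p = 5.7e-11), and FOS, an AP-1 subunit, has 1 region of each direction and rose by 2.12 (SE 0.36, limma adjusted p = 0.000465).

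The largest falls were in G0S2, PPDPF, TXNIP, CREG2, EPHX2 and PTPRZ1. G0S2 was at 3.63 and 5.59 CPM in ALKBH5 shRNA-2 libraries, against 25.7, 22.1 and 34.9 CPM in scramble libraries (-2.35, SE 0.28, limma adjusted p = 5.7e-06), beside its single region at -3.71. TXNIP, an inhibitor of thioredoxin and of glucose uptake, was at 93.6 and 107 CPM in ALKBH5 shRNA-2 libraries, against 278, 248 and 274 CPM in scramble libraries (-1.40, SE 0.10, limma adjusted p = 3.69e-09), with 1 higher and 1 lower region. PPDPF, with 1 higher region, differed by -1.41 (SE 0.15, limma adjusted p = 1.45e-06), and EPHX2, an epoxide hydrolase with 1 lower region, by -1.18 (SE 0.18, limma adjusted p = 0.000112). CREG2 differed by -1.26 (limma adjusted p = 0.00353) and PTPRZ1, a receptor phosphatase, by -1.16 (limma adjusted p = 0.00448), and each has 1 higher region. Without ALKBH5 shRNA-2 replicate 1, neither passed (limma adjusted p = 0.0945 for CREG2 and 0.0686 for PTPRZ1).

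**Figure D5:**
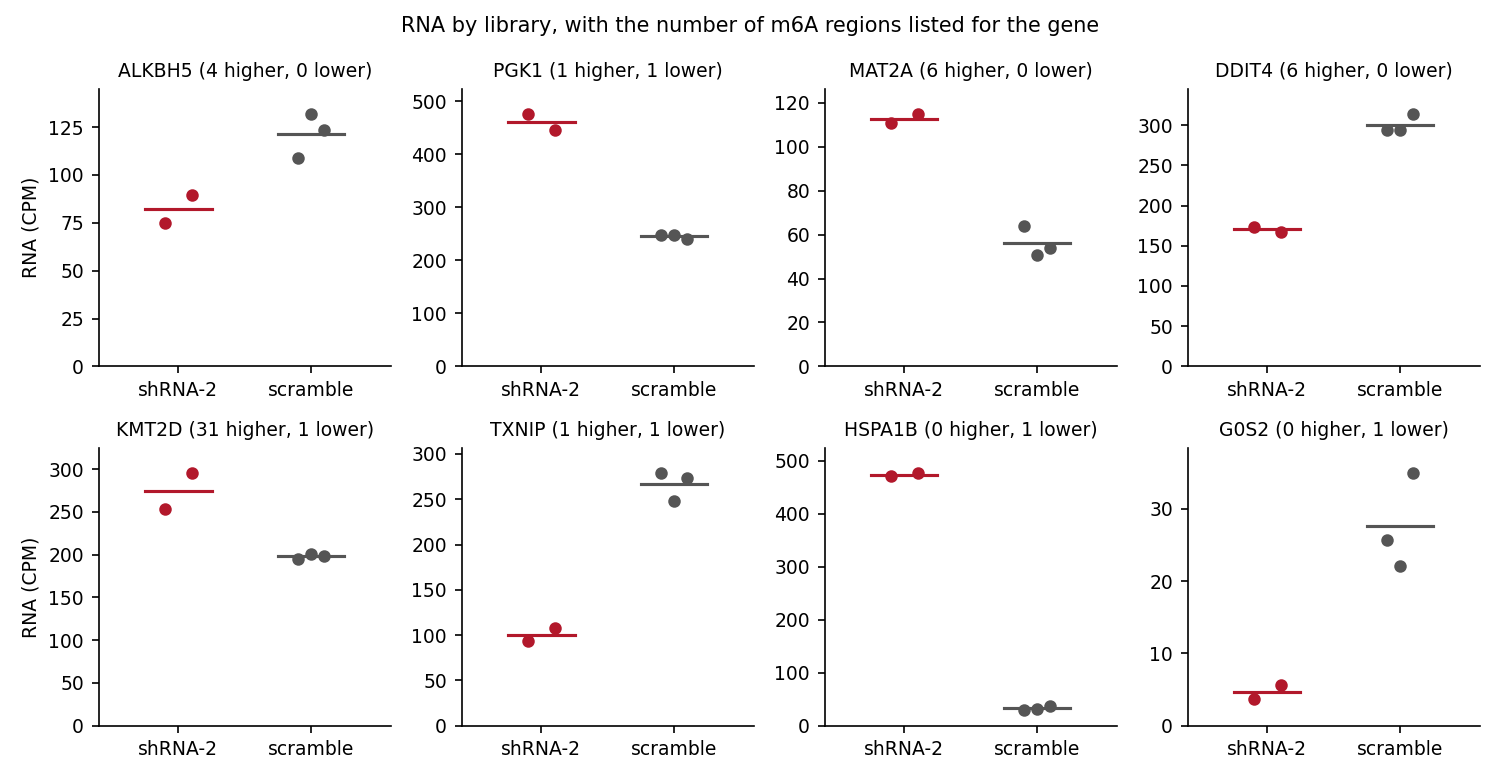
RNA in CPM (vertical axes, each from 0) by library for 8 genes, ALKBH5 shRNA-2 (red) left of scramble (grey), with lines at group means and the number of higher and lower m6A regions in each title. The 8 genes were chosen with earlier results of these data known. In all 8 genes the 2 ALKBH5 shRNA-2 libraries lie outside the range of the 3 scramble libraries. The share of all tested genes with such a separation was not counted.

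In the other tables of the series, ALKBH5 shRNA-1 had 13120 listed regions, with 64.7% higher, against the same scramble samples, beside 19251 and 72.5% for ALKBH5 shRNA-2. The RBM33 tables, which use another scramble group, listed 2070 regions (87.6% higher) for RBM33 shRNA-1 and 3268 (87.5% higher) for RBM33 shRNA-2. Of the ALKBH5 shRNA-2 regions, 605 overlapped a region of the RBM33 shRNA-1 table by at least 1 base, which is 3.14% of the first table and 29.2% of the second. For RBM33 shRNA-2 the overlap was 832 regions, 4.32% of the first table and 25.5% of the second. The sign was the same in 593 of the 605 and in 813 of the 832. Among the regions with the lowest p, that of ATF4 had effects of 1.50 with ALKBH5 shRNA-2, 0.83 with RBM33 shRNA-1 and 0.82 with RBM33 shRNA-2, and the regions of EEF2, SPTBN1 and YBX1 overlapped none of the RBM33 tables.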

How the data were processed

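The m6A values are the authors': per the file headers, each region of the deposited effect table has a log fold change and a p-value, and each region of the deposited share table has methylated shares as a fraction in each group, a log2 ratio and an adjusted p-value. The header names no log base; the deposited effects were taken as natural log because 1099 of them (5.71%) give ratios on that base that are whole numbers once doubled, within 0.0001, and 5 (0.026%) do on base 2. No source used here gives the test behind either table, and the submitters' processing notes name HISAT2 and DESeq2 for m6A-seq, without versions. Empty share-table lines were dropped. Gene spans (hg38), gene types, other gene columns such as length, and CPM, a normalized signal, were taken from the authors' deposited gene table of 15 RNA-seq libraries. The ALKBH5 shRNA-2 group has 2 of them (replicates 1 and 3) and the scramble group 3, and ALKBH5 shRNA-2 replicate 2 was not analysed here. Per the submitters' processing notes, the RNA-seq tools were cutadapt 1.18 (trimming), HISAT2 2.1.0 (alignment), featureCounts of Subread 1.6.4 (counting) and edgeR 3.24.3. Columns of no sample numbered 0.

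Regions were matched to genes by symbol (18255) or RefSeq synonym (792) on the same chromosome and strand, and 204 were not matched; 356 shared bases with a region under another name. RNA was tested with limma 3.58.1 (R 4.3.3, mean-variance trend, log2(CPM + 1), genes whose mean reached 1 CPM, 1 fit of 6 groups, 9 residual degrees of freedom, Benjamini-Hochberg adjusted p under 0.05), after a check on simulated data. Fold changes on this scale understate the change of low genes. Whole reads were recovered from the CPM (100% of values within 0.1 of a read) and tested with edgeR 4.0.16 as an added alternative. Members, gene lists and rules were chosen with earlier results of these data known. Named are the 10 highest and 10 lowest effects, the 8 genes with most regions, the largest share changes, the 6 largest RNA rises and falls of called host genes, and list members; genes with the lowest p, at start sites, and the SF3A2 and AMH pair were added after their values were seen. Some items these rules select are not reported here.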

Additional observations from a re-analysis of the deposited data

How the results depend on the processing

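RNA alternatives (pseudocounts of 0.5 and 2, no filter, a filter at 5 CPM, a fit of these 5 libraries alone, median-ratio scaling, and edgeR on recovered reads, which was chosen after seeing the data) kept the count of called genes between 1437 and 1963, with 1806 by edgeR. The lowest came from the replicate block; replicate numbers pair nothing in the labels, and the block left 1437 genes called, 467 hosts of higher regions only and 173 of lower regions only. Leaving out each library in turn gave 592 to 1394 genes, 204 to 444 hosts of higher regions only and 81 to 185 of lower regions only; with 1 ALKBH5 shRNA-2 library left, that library is assumed to vary like the other groups. The median RNA difference of host genes stayed between -0.03 and -0.01. Of 29 genes named with RNA values, 27 were called, and CREG2 and PTPRZ1 alone lost the call under any alternative, both without ALKBH5 shRNA-2 replicate 1. SF3A2, not called, lay between -0.25 and 0.16 with 1 library left out, above 0 without ALKBH5 shRNA-2 replicate 1 (0.16) and without scramble replicate 3 (0.03). The percent of regions higher was 84.1% at an effect of at least 1, 77.4% at a deposited p under 0.001 and 67.0% with 1 region per gene. Regions near the gene end made up 12.2% within 1000 bases, 6.11% within 500 and 22.5% within 2000, and near the gene start 9.15%, 6.09% and 13.5%; a narrower limit takes in fewer bases by construction. Share-table regions were 100% higher at an adjusted p under 0.01, and 53.3% overlapped the effect table when the overlap had to cover 50% of their length. For these percentages the cause was not tested, and for m6A no paired analysis was possible because the deposited tables hold comparisons and no values per library.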

Other observations

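The share of higher regions differed between chromosomes, with 80.9% of 634 regions on chromosome 22 and 80.9% of 1335 on chromosome 17, 61.4% of 311 on chromosome 13 and 57.2% of 229 on chromosome 18. Transcribed processed pseudogenes had 7 of 23 regions higher (exact 95% interval 13.2 to 52.9%), and transcribed unprocessed pseudogenes had 76 of 96. In the cholesterol synthesis list, 14 of 26 tested genes had regions, 9 with higher regions only, 5 with lower regions only and 0 with both. In these genes 20 of 27 regions (74.1%) were higher, and RNA was called higher in 2 of the 26 genes and lower in 6. Over all tested genes 39.8% had a listed region, 20.3% higher only, 9.28% lower only and 10.2% both. The lowest mean in the list was 9.32 CPM. Of 10811 genes whose mean reached 10 CPM, 6541 had a listed region. The counts by chromosome, pseudogene type and list stand beside 72.5% higher over all regions, and 5.06% higher and 5% lower over all genes tested with limma.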
